A study of Homo sapiens with 30 samples.

Results

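The apolipoprotein L family was followed at the RNA level in 2 human glioblastoma cell lines under interferon gamma (IFN-γ). Its 6 genes, APOL1 to APOL6, were taken by symbol and make up 6 of the 61471 genes in each of the expression tables for U87 and U251. APOL5 was too low to be tested in either line, so 5 members entered the tests, among 22918 genes in U87 and 23667 in U251, and no count of calls below includes APOL5. Expression is given as TPM, the abundance of transcripts per unit of length scaled to a fixed library total, and genes averaging 0.5 TPM or more in a line were tested. APOL4 of U87 had a mean of 0.192 TPM in Untreated cells and passed that filter only through the treated groups in which it was high. Its rises in U87 are therefore given as descriptions, and the counts of calls there refer to APOL1, APOL2, APOL3 and APOL6. The 1 exception is the comparison of D28WO with D28, where APOL4 is counted.

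U87 and U251 are established glioblastoma lines, and bulk RNA of 30 samples was sequenced to ask how prolonged IFN-γ and its removal change them. Each line has 5 groups of 3 samples that the labels call biological replicates. Untreated cells received no IFN-γ, D3, D14 and D28 cells were kept with it for 3, 14 and 28 days, and D28WO (washout) cells had it for 14 days and then went without it for 14 days. The labels give a dose of 1 µg/mL and day 3 for collection of the Untreated cells. The methods of the study name another dose and another day for those cells, so neither dose nor day is taken as settled. For U87, 2 of the columns share a name and were left out, so U87 has 2 libraries at D3 and 2 at D14, and 28 of the 30 libraries were used. The deposited tables are named TPM, which adjust for transcript length and library total, whereas a supplementary sheet of the study calls the values CPM, which do not adjust for length. The lowest value above 0 of a gene fell with the median length of its transcripts (Spearman rho = -0.77 over 20110 genes listed at 0 in some library of U87 and -0.78 over 21381 in U251), as values divided by length do, and they were used as TPM. Sums, shares and ranks across genes below rest on that reading, and fold changes within a gene do not depend on length except through the pseudocount and the filter. The values keep no sequencing depth, so a value of 0 does not say how low a level could have been seen. The tables of the lines were normalized separately and are never compared in a test.

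The family encodes lipid-binding proteins with regions that insert into membranes. APOL1 carries a signal peptide, is secreted and circulates on high-density lipoprotein particles, where it kills trypanosomes by forming ion channels in their membranes. The other members lack it and act inside the cell. In many cell types IFN-γ binds its receptor, the kinases JAK1 and JAK2 become active, and factors such as IRF1 switch on the APOL genes along with guanylate-binding proteins and antigen presentation genes.

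The labels of the lines were set against glial and glioma markers. VIM and CD44, which are abundant in many glioma cells, were at 1307 and 686 TPM in Untreated U87 and at 1141 and 839.8 TPM in Untreated U251. The astrocyte filament gene GFAP was at 1258 TPM in Untreated U251 and 4.84 TPM in Untreated U87, and the stem cell factor SOX2 at 159 and 0.219 TPM. AQP4, a water channel of astrocytes, was listed at 0 in all 13 U87 libraries used and was low in Untreated U251 too, at 0.535 TPM. OLIG2, another glial marker, ran the other way from GFAP and SOX2, at 7.16 TPM in Untreated U87 and 0 TPM in Untreated U251. SOX2 stayed below 0.5 TPM in every U87 library and GFAP was low there, with a highest group mean of 14.2 TPM, at D28WO, whereas VIM and CD44 were high in both lines.

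The groups labelled D14 and D28WO need a remark before the results. The columns of the tables carry library numbers, which the labels tie to groups. By these labels, D14 cells were under IFN-γ and D28WO cells had been without it for 14 days. The summed level of the 6 APOL genes split the groups in another way. In U87 the sum was 98.7 ± 3.44 TPM (mean ± SD, n = 3) in Untreated, 444 ± 27.6 (D3, n = 2), 114 ± 3.30 (D14, n = 2), 499 ± 8.33 (D28, n = 3) and 509 ± 19.2 (D28WO, n = 3). The U251 sums were 152 ± 6.05 TPM in Untreated, 699 ± 83.2 (D3), 273 ± 11.3 (D14), 752 ± 17.4 (D28) and 753 ± 6.27 (D28WO) (n = 3 each). So the libraries labelled D14 lay nearest to Untreated and those labelled D28WO lay beside D28, in both lines. Whether the labels of D14 and D28WO are interchanged was not tested, the groups are kept as labelled, and the comparisons of D3 and D28 with Untreated do not use them except for the shared estimate of the spread. With only the 2 compared groups in the fit, 4 of 4 members of U87 and 5 of 5 of U251 passed the threshold at D3 and at D28. The share of all genes called in those fits is not given, so these counts describe the members alone.

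**Figure D1:**
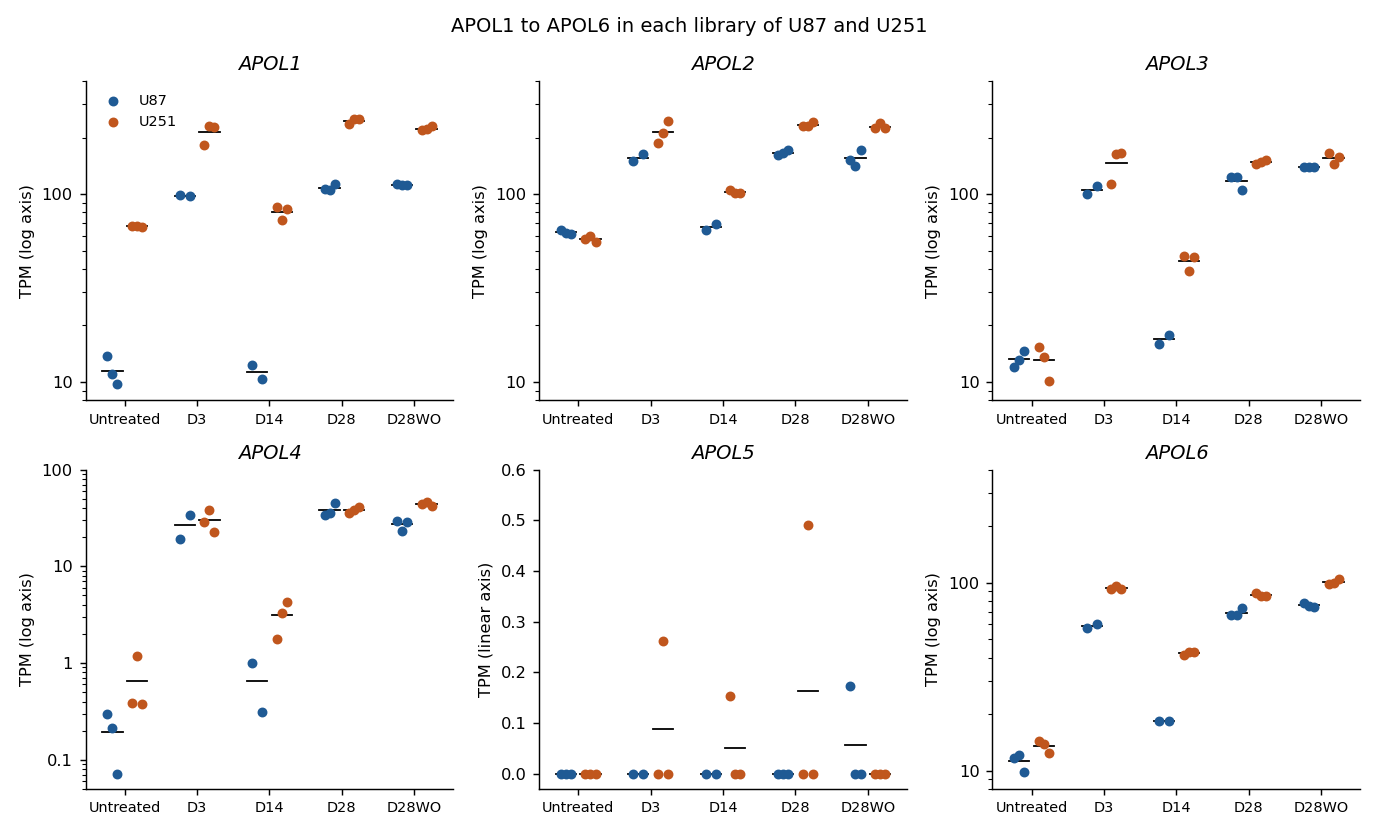
TPM of APOL1 to APOL6 in each library, by group (x axis), for U87 (blue) and U251 (orange), on log axes except for APOL5, with each group mean as a black line. For APOL1, APOL2, APOL3, APOL4 and APOL6 the D3, D28 and D28WO libraries lie above every Untreated and D14 library of their line, and APOL5 stays below 0.5 TPM.

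Within a line, all groups entered 1 limma fit on log2(TPM + 1), and the threshold asked for a Benjamini-Hochberg adjusted p under 0.05, computed across every gene tested, together with an absolute log2 fold change over 1. Fold changes on this scale understate the change of low genes. At D3 of U87, 4 of 4 members counted passed as higher, beside 5.85% of all genes tested. In U251 at D3 it was 5 of 5, beside 9.72% of all genes. At D28 and D28WO of U87 the count was 4 of 4 higher, beside 6.77% and 12.8% of all genes, and at D28 and D28WO of U251 5 of 5, beside 11.9% and 4.07%. At D14 the lines had different counts. At D14 of U87, 0 of 4 passed with limma, where 2 had an unadjusted p under 0.05 and 1.89% of all genes were called higher, and 3 of 5 passed in U251, beside 4.72% of all genes. That difference between the lines was not tested. These shares of all genes also stand beside the counts of genes called higher against Untreated in the other lists below. The share of all genes called lower against Untreated is not given, so counts of genes called lower there describe those genes alone. The RNA came from whole cultures, so fewer responding cells and less RNA per cell cannot be told apart.

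APOL1, the secreted member, was at 13.79, 10.96 and 9.72 TPM in the Untreated libraries of U87 and at 99.2 and 97.2 TPM at D3. At D14 its libraries were at 12.3 and 10.4 TPM, at D28 at 106, 105 and 113 TPM and at D28WO at 113, 111 and 112 TPM. Every D3, D28 and D28WO library was thus far above every Untreated library, and the D14 libraries lay within the Untreated range. The log2 fold change against Untreated (± SE, where given) was 3.00 ± 0.12 (D3), -0.01 (D14), 3.14 (D28) and 3.19 (D28WO) (adjusted p = 7.5e-08, 0.994, 1.2e-08 and 7.0e-09 by limma with Benjamini-Hochberg adjustment). In order of mean level the groups ran D14, Untreated, D3, D28 and D28WO, and the libraries of D14 and Untreated and those of D28 and D28WO overlapped.

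Untreated U251 cells held more APOL1 than Untreated U87 cells, at 67.5, 67.9 and 67.1 TPM. The D3 libraries reached 184, 229.5 and 228 TPM, those of D28 236, 250.1 and 250.1 TPM and those of D28WO 218, 221 and 231 TPM. At D14 the values were 85.8, 73.1 and 83.4 TPM, all just above the Untreated libraries and well below the other treated ones. Its log2 fold change was 1.64 ± 0.08 (D3), 0.25 (D14), 1.85 (D28) and 1.71 (D28WO) (adjusted p = 2.5e-09, 0.0405, 6.8e-10 and 2.2e-09 by limma with Benjamini-Hochberg adjustment), so that D14 met the limit on p but not that on the fold change. The order was Untreated, D14, D3, D28WO and D28, in which D3 and D28WO overlapped and each other pair of neighbours was separate.

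APOL3 is known for work in the cytosol, where with GBP1 it breaks the membranes of invading bacteria in the manner of a detergent. In U87 its Untreated libraries were at 11.94, 13.01 and 14.60 TPM and its D3 libraries at 99.6 and 110.2 TPM. At D14 they were at 15.9 and 17.8 TPM, at D28 at 124, 123 and 106 TPM and at D28WO at 139, 139 and 139 TPM. D28WO held the highest libraries, D14 lay just above Untreated with no overlap, and D3 overlapped D28. Against Untreated the log2 fold change was 2.90 ± 0.11 (D3), 0.33 (D14), 3.06 (D28) and 3.31 (D28WO) (adjusted p = 3.0e-08, 0.0902, 4.9e-09 and 2.0e-09 by limma with Benjamini-Hochberg adjustment). The step from D28 to D28WO, 0.24 ± 0.09, did not pass (adjusted p = 0.102 with limma), although the libraries did not overlap.

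In U251, APOL3 started at nearly the same level, 15.4, 13.5 and 10.1 TPM, and reached 113, 163 and 166 TPM at D3. The D14 libraries were at 46.8, 38.8 and 46.4 TPM, between these groups and apart from both. At D28 the values were 145, 147 and 152 TPM and at D28WO 165, 144 and 158 TPM, and D3, D28 and D28WO overlapped. APOL3 rose by 3.40 ± 0.15 on the log2 scale at D3, 1.70 ± 0.15 (D14), 3.43 (D28) and 3.50 (D28WO) (adjusted p = 9.5e-10, 4.4e-06, 7.9e-10 and 8.9e-10 by limma with Benjamini-Hochberg adjustment). The lowest D3 library, replicate 1, stood below the other 2 at that time.

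APOL2, an intracellular member found at the endoplasmic reticulum, was the most abundant of the family in each group of U87 and had the smallest fold change at D3, D28 and D28WO there. It was at 64.7, 61.8 and 61.4 TPM in Untreated U87, 149 and 163 TPM at D3 and 64.1 and 69.2 TPM at D14. At D28 its libraries were at 162, 165 and 172 TPM and at D28WO at 152, 140.3 and 172 TPM. D14 overlapped Untreated, and D28WO, D3 and D28, in rising order of their means, overlapped each other. The log2 fold change was 1.30 ± 0.09 (D3), 0.09 (D14), 1.40 (D28) and 1.29 (D28WO) (adjusted p = 2.3e-06, 0.590, 3.8e-07 and 4.0e-07 by limma with Benjamini-Hochberg adjustment).

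In U251, APOL2 went from 57.4, 59.9 and 55.5 TPM in Untreated to 186, 211 and 246 TPM at D3. Its D14 libraries were at 105, 102 and 102 TPM, tightly grouped and apart from both Untreated and D3. The values were 231, 230.3 and 242 TPM at D28 and 225, 238 and 224 TPM at D28WO, overlapping each other and D3. Log2 fold changes were 1.87 ± 0.08 (D3), 0.83 ± 0.08 (D14), 2.01 (D28) and 1.97 (D28WO) (adjusted p = 4.4e-10, 6.7e-06, 1.8e-10 and 2.8e-10 by limma with Benjamini-Hochberg adjustment), and at D14 only the limit on the fold change was missed.

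APOL4, an intracellular member whose function is little known, was nearly silent in Untreated cells. In U87 it was at 0.294, 0.212 and 0.0707 TPM in Untreated, 19.4 and 33.8 TPM at D3 and 0.996 and 0.313 TPM at D14. At D28 it was at 33.8, 35.3 and 45.2 TPM and at D28WO at 29.8, 23.0 and 28.9 TPM. The D14 libraries lay above the Untreated ones but below 1 TPM, D3 overlapped D28WO, and D28 was higher than D28WO with no overlap. The log2 fold changes of APOL4 in U87, 4.49 ± 0.27 (D3), 5.03 (D28) and 4.56 (D28WO), are given with no test, since the gene entered the tests through these groups. At D14 its value of 0.45 ± 0.27 did not pass (adjusted p = 0.352 with limma), and it ran from 0.14 to 0.75 without either D14 library and was 0.0871 after quantile normalization. Because its Untreated level lies under the pseudocount, its fold change depends on that choice, and with a pseudocount of 0.1 it was 1.29 at D14 and 6.54 at D3.

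The same gene in U251 was at 0.388, 1.19 and 0.376 TPM in Untreated and 28.6, 38.4 and 22.9 TPM at D3. Its libraries were at 1.78, 3.30 and 4.30 TPM at D14, 35.3, 38.4 and 41.4 TPM at D28 and 44.5, 46.2 and 41.9 TPM at D28WO. The D14 libraries were low but separate from Untreated, and D28WO was the highest group, separate from D28. APOL4 rose by 4.23 ± 0.25 (D3), 1.31 ± 0.25 (D14), 4.61 (D28) and 4.81 (D28WO) on the log2 scale (adjusted p = 1.4e-08, 0.00200, 5.4e-09 and 5.4e-09 by limma with Benjamini-Hochberg adjustment). The call at D14 was lost with quantile normalization (log2 fold change 0.99) and with only the 2 compared groups in the fit (limma, adjusted p = 0.0503), and the highest Untreated library, replicate 2, stood apart from the other 2.

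APOL6 has a region resembling the BH3 domain of cell death proteins. In U87 it was at 11.7, 12.1 and 9.80 TPM in Untreated, 57.5 and 60.1 TPM at D3 and 18.3 and 18.5 TPM at D14. At D28 its libraries were at 67.4, 67.0 and 73.4 TPM and at D28WO at 78.5, 75.1 and 74.8 TPM. No neighbours overlapped in the order Untreated, D14, D3, D28 and D28WO, and its D14 libraries stood well above all Untreated ones. The log2 fold change was 2.30 ± 0.10 (D3), 0.67 ± 0.10 (D14), 2.53 (D28) and 2.66 (D28WO) (adjusted p = 9.1e-08, 0.00774, 1.3e-08 and 7.0e-09 by limma with Benjamini-Hochberg adjustment). At D14 it met the limit on p but not that on the fold change. The D14 value was 0.37 after quantile normalization, and the limit on p was missed without either D14 library and with only the 2 compared groups in the fit.

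In U251, APOL6 went from 14.4, 13.9 and 12.4 TPM in Untreated to 92.8, 96.4 and 92.8 TPM at D3. Its D14 libraries were at 41.1, 43.1 and 43.0 TPM, with very little spread. At D28 it was at 88.0, 85.3 and 84.8 TPM, below D3, and at D28WO at 98.1, 99.5 and 105 TPM, above D3. All groups were separate in the order Untreated, D14, D28, D3 and D28WO. Log2 fold changes were 2.71 ± 0.06 (D3), 1.58 ± 0.06 (D14), 2.58 (D28) and 2.81 (D28WO) (adjusted p = 1.6e-12, 1.1e-09, 1.8e-12 and 1.0e-12 by limma with Benjamini-Hochberg adjustment).

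APOL5 was listed at 0 in 12 of the 13 U87 libraries and in 12 of the 15 U251 libraries. The exceptions were 1 D28WO library of U87 at 0.172 TPM and 1 library each at D3, D14 and D28 of U251, the highest at 0.491 TPM. In no group was more than 1 library above 0, and no change is given for it.

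**Figure D2:**
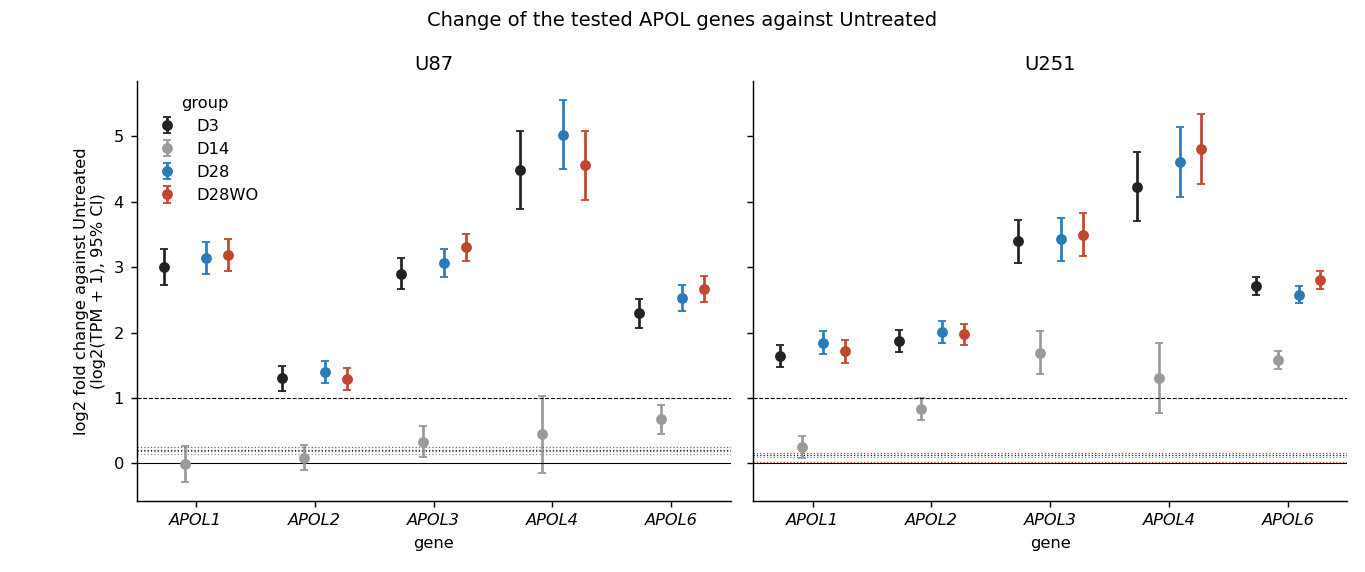
Log2 fold change against Untreated (y axis, on log2(TPM + 1)) of the 5 tested APOL genes in U87 and U251, with 95% confidence intervals from limma, for D3, D14, D28 and D28WO. Dotted lines mark the median of all genes tested and the dashed line a log2 fold change of 1, and the D14 points lie below the other 3 groups for each gene.

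The median of all genes tested was itself above 0 in each comparison with Untreated. In U87 it was 0.20 (D3), 0.15 (D14), 0.19 (D28) and 0.25 (D28WO), and in U251 0.13, 0.10, 0.16 and 0.02 (log2 fold change). The 5 tested APOL genes of U251 had a median of 2.71 (D3), 1.31 (D14), 2.58 (D28) and 2.81 (D28WO). Relative to the median of all genes, the changes at D14 of U87 were -0.16 for APOL1, -0.06 for APOL2, 0.19 for APOL3, 0.30 for APOL4 and 0.52 for APOL6. At this time the sign of APOL2 turned under quantile normalization and under scaling by median ratios, and no direction is drawn for APOL1 and APOL2. At D14 of U251 the relative changes were 0.16 for APOL1 and 0.73 for APOL2, and those of the other 3 members were above 1. At D3, D28 and D28WO the shift is small beside the changes, the least of which was 1.04 relative to all genes, for APOL2 at D28WO of U87.

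Direct comparisons between treated groups show where the steps lay. From D3 to D14, 4 of 4 members fell in U87, beside 2.05% of all genes, with log2 fold changes from -3.01 for APOL1 to -1.21 for APOL2. In U251, 5 of 5 fell, beside 3.29%, from -2.93 for APOL4 to -1.04 for APOL2. With D28 set against D14, 4 of 4 were higher at D28 in U87 and 5 of 5 in U251, beside 1.78% of all genes in U87 and 4.23% in U251. The U251 fall of APOL2 missed the limit on the fold change without D3 replicate 3 (log2 fold change -0.94), and the U251 rise of APOL6 from D14 to D28, 1.01, missed it with median-ratio size factors (0.98), without D14 replicate 1 (0.98) and without D28 replicate 1 (0.99). The fall from D3 to D14 in U87 rests on 2 libraries against 2, and 0 of 4 passed in limma when only these groups were fitted (adjusted p = 0.0749 for each).

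The washout comparison asks whether levels return once IFN-γ is gone. Between D28WO and D28, 0 of 5 members, APOL4 of U87 included, passed the threshold in either line with limma, beside 5.53% of all genes in U87 and 9.26% in U251, and 1 of 5 had an unadjusted p under 0.05 in each line. In U87 that was APOL3, and in U251 APOL6, higher at D28WO by 0.23 ± 0.06 on the log2 scale (adjusted p = 0.0160 by limma with Benjamini-Hochberg adjustment), under the limit on the fold change. The 95% intervals of the log2 differences, which are not adjusted for the number of genes, show what sizes these data allow. In U87 they ran from -0.19 to 0.30 for APOL1, from -0.28 to 0.06 for APOL2, from 0.04 to 0.45 for APOL3, from -0.99 to 0.06 for APOL4 and from -0.06 to 0.34 for APOL6. In U251 they ran from -0.31 to 0.04 for APOL1, from -0.20 to 0.13 for APOL2, from -0.26 to 0.40 for APOL3, from -0.33 to 0.73 for APOL4 and from 0.09 to 0.36 for APOL6. For APOL4 of U87 the interval thus reaches nearly to a halving. APOL4 went opposite ways, with -0.47 ± 0.24 in U87 and 0.20 ± 0.25 in U251, and neither passed (limma, adjusted p = 0.215 and 0.589). Set against D14, from which the washout began, D28WO had 4 of 4 members higher in U87 and 5 of 5 in U251, beside 6.30% of all genes in U87 and 1.78% in U251.

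On the TPM scale, the rise at D14 can be given as a share of the rise at D3, both over the Untreated mean. In U87 this share was 15.1% for APOL6, from 13.8% to 15.9% with any 1 library left out. The shares of the other 4 members of U87 rest on small changes of 2 D14 libraries and are not ranked. In U251 it was 8.45% for APOL4, 9.07% for APOL1, 23.1% for APOL3, 28.9% for APOL2 and 35.8% for APOL6. APOL6 thus kept the largest share at D14 of U251. The rise at D28WO as a share of that at D28 ran from 71.3% (APOL4) to 120.4% (APOL3) in U87 and from 87.7% (APOL1) to 120.5% (APOL6) in U251. These shares of means are descriptions without a test.

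**Figure D3:**
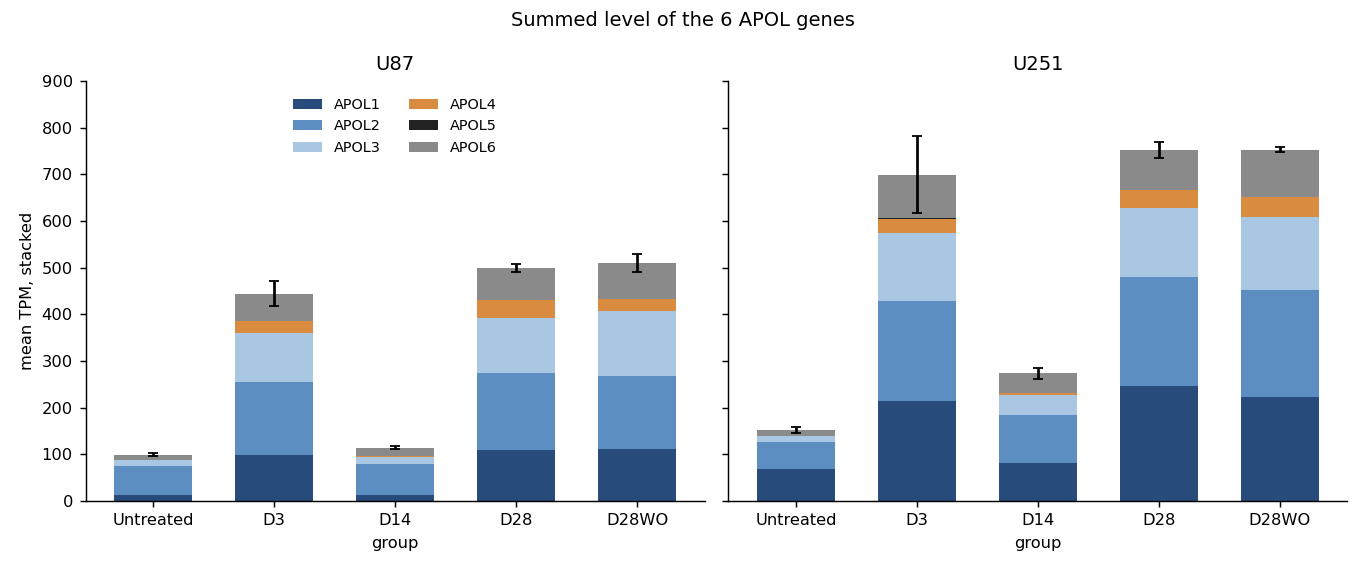
Mean TPM of the 6 APOL genes stacked by group (x axis) for U87 and U251, with error bars giving the SD of the summed level (n = 3, or 2 at D3 and D14 of U87). The sums at D28 and D28WO are alike, 499 and 509 TPM in U87 and 752 and 753 TPM in U251, and APOL2 takes a smaller share of the U87 sum at D3, D28 and D28WO than in Untreated.

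The make-up of the family differed between the lines before treatment. APOL2 made up 63.5% ± 0.669 (SD, n = 3) of the summed TPM in Untreated U87 and APOL1 11.6% ± 1.69. In Untreated U251, APOL1 was the leading member with 44.3% ± 1.54 and APOL2 followed with 37.8% ± 0.698 (SD, n = 3). At D28 the share of APOL2 in U87 was 33.3% ± 0.436, with APOL3 at 23.6% ± 2.46 and APOL1 at 21.6% ± 0.522 (SD, n = 3). In U251 at D28 the shares were 32.6% ± 0.587 for APOL1, 31.1% ± 0.459 for APOL2 and 19.7% ± 0.0545 for APOL3 (SD, n = 3). APOL2 had the higher mean share at D3, D14 and D28WO of U251, with 30.7%, 37.7% and 30.4%. The shares of APOL1 there were 30.6%, 29.5% and 29.7%, and the libraries overlapped at D3 and D28WO. In each line the leading member of Untreated cells, APOL2 in U87 and APOL1 in U251, had the smallest fold change at D3, D28 and D28WO. That its share of the sum was lower at D28 than in Untreated follows from this by arithmetic. APOL4 stayed the lowest of the 5 tested members in every group of both lines, with 7.61% ± 1.10 and 5.10% ± 0.291 of the sum at D28 (SD, n = 3).

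The 6 genes lie on chromosome 22 (GRCh38, GENCODE release 44) over 619 kb in 2 stretches. APOL6 (chr22:35648446-35668404, plus strand) and APOL5 (chr22:35717872-35729483, plus strand) form the first, and RBFOX2, a splicing factor gene, has its midpoint between it and the rest. APOL3 (chr22:36140329-36166177), APOL4 (chr22:36189124-36204840) and APOL2 (chr22:36226209-36239954), all on the minus strand, and APOL1 (chr22:36253071-36267530, plus strand) form the second, within 127 kb, and MYH9, a nonmuscle myosin gene, is the next listed gene. No other annotated gene overlaps any of the 6 on either strand. APOL5 was thus near 0 in each group although its neighbour APOL6 rose in both lines.

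The listed neighbours comprised 11 genes on both sides of and between the stretches. The share of all genes called lower is not given, so counts of neighbours called lower are not read as a result about them. At D3 and at D28 of U87, 0 of 11 tested neighbours passed as higher and 1 passed as lower with limma (6 and 7 with an unadjusted p under 0.05 in either direction), and at D28WO 2 were lower, with median log2 fold changes of -0.27, -0.25 and -0.50. The gene that fell each time was RASD2, which encodes a small G protein, from 9.64 TPM in Untreated to 1.48 TPM at D28 (log2 fold change -2.13 ± 0.28, limma with Benjamini-Hochberg adjustment, adjusted p = 3.7e-04). The other at D28WO was MCM5, a subunit of the replicative helicase, at -1.06 ± 0.18 (limma, adjusted p = 6.1e-04), and the count was 1 without D28WO replicate 1. MCM5 passed at D28WO of U251 too, at -1.17 ± 0.15 (limma, adjusted p = 4.5e-05), and RASD2 did not pass at D28 there, at -0.22 ± 0.22, a difference between the lines that was not tested. At D3 of U251 each RASD2 library lay below each Untreated one, with means of 2.19 TPM in Untreated and 0.979 TPM at D3, and the log2 fold change of -0.68 ± 0.22 missed only the limit on its size (limma, adjusted p = 0.0255). Of 10 tested neighbours in U251, 0 passed at D3 with limma (6 at an unadjusted p under 0.05) and 1 was higher at D28, the heme oxygenase gene HMOX1 at 1.35 ± 0.12 (limma, adjusted p = 1.2e-06), while in U87 its value was -0.53 ± 0.09 (limma, adjusted p = 0.00151). RBFOX2 and MYH9, the listed genes on either side of the second stretch, were at 0.22 and -0.34 (D28) of U87 and at -0.28 and -0.33 in U251, and did not pass. None of the 11 neighbours had a rise at D28 as large as that of any tested APOL gene of its line.

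**Figure D4:**
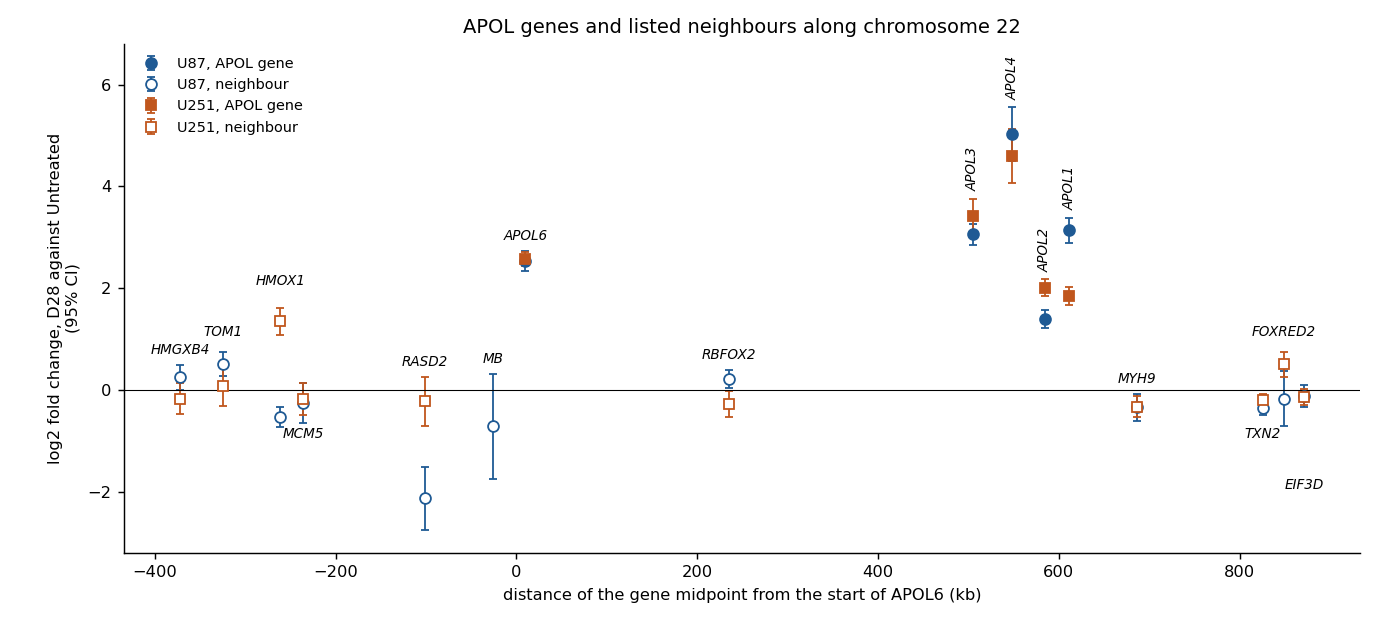
Log2 fold change at D28 against Untreated (y axis, with 95% confidence intervals from limma) of the tested APOL genes (filled) and of 11 neighbours (open, MB only in U87) by the distance of the gene midpoint from the start of APOL6 in kb (x axis), for U87 (circles) and U251 (squares). The APOL genes stand at 1.40 to 5.03 and RBFOX2 and MYH9 between -0.34 and 0.22. HMOX1 of U251, at 1.35, and RASD2 of U87, at -2.13, are the highest and lowest of the neighbours.

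Of 11 listed genes of IFN-γ signalling, 3 passed as higher at D3 of U87, 0 at D14 with limma (5 at an unadjusted p under 0.05) and 4 at D28 and at D28WO. In U251, 5 of 11 passed as higher at D3, 4 at D14 and 5 at D28 and at D28WO. The count was 2 at D28 of U87 with quantile normalization and 2 at D14 of U251 with median-ratio size factors. None passed as lower against Untreated, but at D3 of U251 4 were lower by the adjusted p alone (limma), among them IFNGR2, a chain of the receptor, from 98.1 to 60.3 TPM, and JAK1, from 92.7 to 76.1 TPM. IRF1, an activator made early in the response, was at 136, 130.1 and 134 TPM in Untreated U87, 445 and 450.1 TPM at D3 and 134 and 109.8 TPM at D14. Its D14 libraries in U87 overlapped the Untreated ones, with a log2 fold change of -0.13 ± 0.11 against 1.74 ± 0.11 (D3) (adjusted p = 0.488 and 1.1e-06 by limma with Benjamini-Hochberg adjustment). IRF9, a DNA-binding factor of the interferon response, was at 0.08 (D14) and 1.16 (D3) in the same line.

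In U251 IRF1 and IRF9 stayed higher at D14, and the difference between the lines was not tested. IRF9 kept 1.35 (D14) of its 1.54 (D3) on the log2 scale, at a time when APOL1 was at 0.25, APOL2 at 0.83, APOL4 at 1.31, APOL6 at 1.58 and APOL3 at 1.70 (adjusted p = 6.5e-09 for IRF9 at D14 by limma with Benjamini-Hochberg adjustment). IRF1 was at 1.08 (D14) and 2.04 (D3). JAK2 and SOCS1, a kinase of the receptor and its inhibitor, went from 2.53 and 3.26 (D3) to 0.56 and 1.39 (D14), and SOCS1 stood at 4.13 (D28WO). JAK2 did not pass the threshold at D14.

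The guanylate-binding proteins, large GTPases that coat intracellular pathogens, are a second family of the IFN-γ response that lies in a cluster. In U87, 5 of 5 tested members passed as higher at D3, D28 and D28WO and 1 at D14, and in U251 GBP1 to GBP5 passed as higher at D3, D28 and D28WO and 3 of these 5 at D14. GBP6 and GBP7 of U251 had Untreated means of 0.117 and 0.0423 TPM and entered the tests only through treated groups in which they were high, so they are left out of these counts. The 1 at D14 of U87 was GBP5, whose call was lost in most alternative fits, such as those without either D14 library. Their median log2 fold changes in U87 were 2.61 (D3), 0.18 (D14), 2.78 (D28) and 3.01 (D28WO). GBP1, the partner of APOL3, was at 36.9, 39.6 and 31.3 TPM in Untreated U87, 209 and 240.2 TPM at D3, 31.7 and 36.6 TPM at D14 and 253, 256 and 244 TPM at D28. Its D14 libraries again lay among the Untreated ones, and its log2 fold changes in U251 were 3.23 (D3) and 1.68 (D14), beside 3.40 and 1.70 for APOL3.

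**Figure D5:**
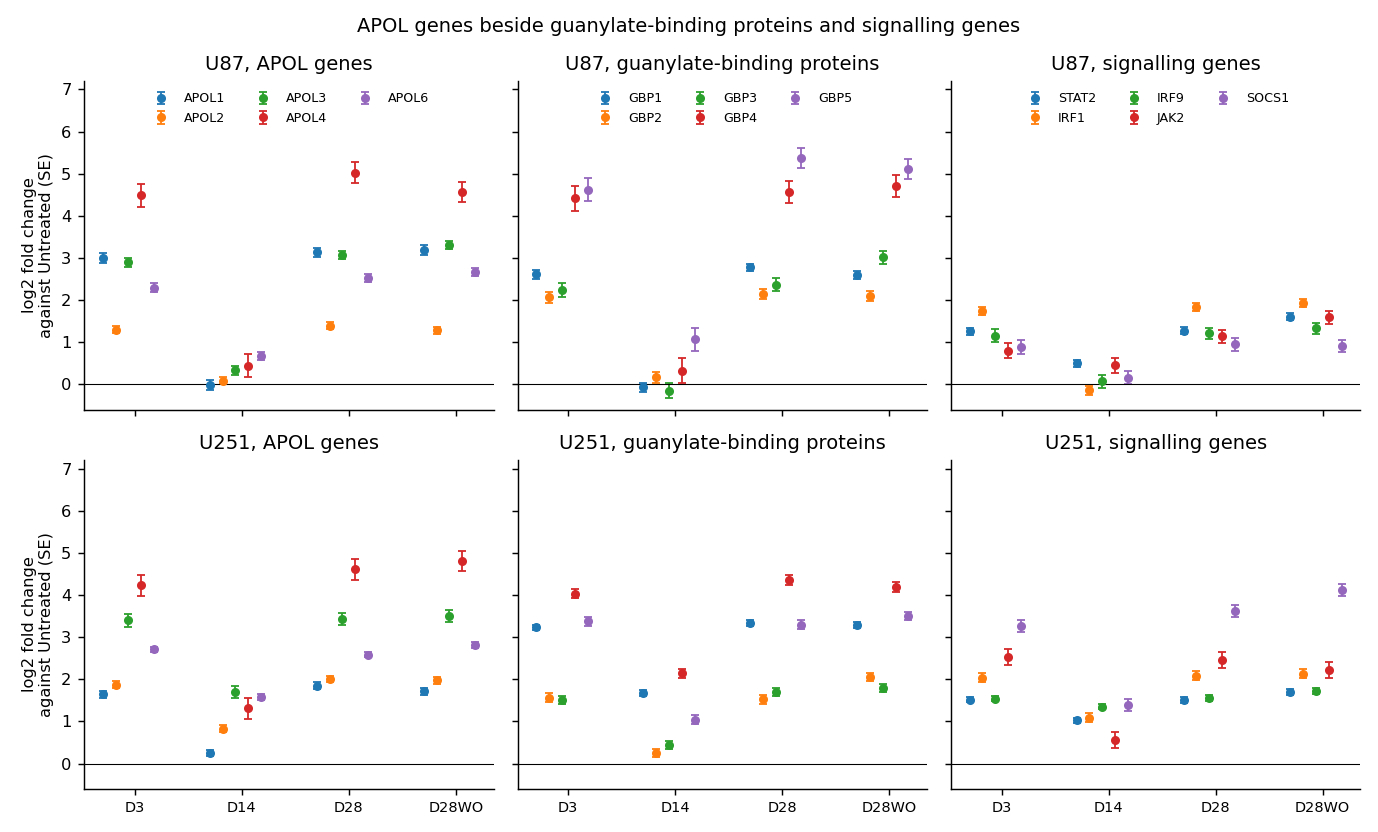
Log2 fold change against Untreated (y axis, with SE from limma) at D3, D14, D28 and D28WO of 5 APOL genes, 5 guanylate-binding proteins and 5 signalling genes in U87 (top) and U251 (bottom). At D14 of U251 the point of IRF9, at 1.35, stays close to its value at D3, 1.54, while those of the APOL genes are lower than at D3.

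Genes whose pattern was most like that of each member were found by the root mean square difference of the log2 fold changes against Untreated over 8 values, the 4 groups of both lines, among the 20473 genes tested in both. For APOL1 they were PLAAT4 (0.33), ISG20 (0.34) and GBP3 (0.40). For APOL2 they were IFI35 (0.10), TAPBPL (0.16) and PSMB9 (0.18), the last a subunit of the immunoproteasome. GBP1 (0.34), PTGES3P1 (0.36) and SLC15A3 (0.53) were nearest to APOL3. APOL4 had GBP4 (0.42), GJD3 (0.52) and ETV7 (0.62), and APOL6 had TLR3 (0.26), a sensor of double-stranded RNA, ENSG00000225864 (0.35) and IL15RA (0.37). The closest match of all was that of APOL2 and IFI35, and 3 of the 15 genes were guanylate-binding proteins.

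Promoters were looked up in RefSeq (GRCh38.p14), in windows of 300 bases, most of them before the gene start. The table used holds no entry for APOL1 to APOL6, and it holds 9 of the 15 genes most like a member. The windows were searched on both strands for the core of the interferon-stimulated response element, GAAA, any 2 bases and GAAA again. Of all 35116 windows, 3.57% hold it. Among the 9 genes, 5 have a window with the response element core. Some genes have several windows, so this count per gene is not set against the share per window. Of the windows of the genes nearest to each member, only those that hold the core are printed, so its presence in them was fixed by this choice. They are those of the genes nearest to APOL3, APOL4 and APOL6, with the core in capitals, 5′ to 3′ on the strand of the gene. The regions are chr1:89065159-89065458, minus strand, for GBP1, chr1:89198893-89199192, minus strand, for GBP4, and chr4:186068906-186069205, plus strand, for TLR3.
GBP1: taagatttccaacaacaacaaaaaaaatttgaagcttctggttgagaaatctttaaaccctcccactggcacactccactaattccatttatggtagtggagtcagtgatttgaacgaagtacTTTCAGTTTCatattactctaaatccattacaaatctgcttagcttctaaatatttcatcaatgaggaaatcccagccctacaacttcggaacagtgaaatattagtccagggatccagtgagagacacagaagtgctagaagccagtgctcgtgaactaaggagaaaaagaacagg
GBP4: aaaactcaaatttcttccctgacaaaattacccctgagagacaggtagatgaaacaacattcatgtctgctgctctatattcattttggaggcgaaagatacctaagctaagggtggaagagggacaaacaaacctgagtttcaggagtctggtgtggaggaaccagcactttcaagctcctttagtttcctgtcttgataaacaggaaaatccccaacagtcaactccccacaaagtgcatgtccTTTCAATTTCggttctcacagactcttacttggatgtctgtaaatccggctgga
TLR3: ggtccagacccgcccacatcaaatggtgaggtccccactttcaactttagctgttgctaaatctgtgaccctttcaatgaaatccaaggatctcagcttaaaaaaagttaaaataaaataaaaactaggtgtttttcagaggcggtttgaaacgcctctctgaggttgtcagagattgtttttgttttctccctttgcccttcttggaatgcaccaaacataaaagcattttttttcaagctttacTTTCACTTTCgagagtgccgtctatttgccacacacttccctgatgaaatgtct
The windows of GBP1, GBP4 and TLR3 hold the response element core 1 time each on the other strand. That of IFI35, the gene nearest to APOL2, does not hold it and is not printed, and PLAAT4, nearest to APOL1, had no window. A match of letters is a description and not a binding site.

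Genes that share the apolipoprotein name mostly did not pass the threshold. Of 18 listed apolipoproteins and related genes, 9 were tested in U87 and 8 in U251. In U87, 0 of 9 passed at D3, D14, D28 and D28WO with limma, where 1, 1, 2 and 4 had an unadjusted p under 0.05. Of all genes tested in U87, 5.85%, 1.89%, 6.77% and 12.8% were called higher in these comparisons. With so few genes, 0 of 9 is not read as a result about the list. The median log2 fold changes of these 9 were 0.01 (D3) and 0.28 (D28WO). In U251 the only call against Untreated was that of APOD at D28. It had 0.171 TPM in Untreated and entered the tests through D14 and D28, where it was highest, so the call is not counted. APOLD1, whose product resembles the APOL proteins but whose gene lies on another chromosome, was at 38.3, 35.1 and 34.7 TPM in Untreated U87 and 35.0, 34.6 and 34.9 TPM at D28, overlapping ranges. HPR, which joins APOL1 on the same trypanosome-killing particles in blood, was listed at 0 in the Untreated libraries of both lines.

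Proteins that bind or act with APOL1 and APOL3 at the Golgi were listed as 6 genes, 5 of them tested in each line. They include NCS1, a calcium sensor, and PI4KB, a lipid kinase. At D28, 0 of 5 passed in U87 and 0 of 5 in U251 with limma (3 at an unadjusted p under 0.05 in each), with medians of -0.12 and -0.15. The only one past the threshold against Untreated was VAMP8, a membrane fusion protein, at D3 of U87, where it went from 6.42, 4.77 and 4.75 TPM in Untreated to 11.7 and 11.9 TPM (log2 fold change 1.03 ± 0.30, limma with Benjamini-Hochberg adjustment, adjusted p = 0.0388). That call was lost, leaving 0 of 5, under quantile normalization, under scaling by median ratios and without either D3 library. NCS1 was at 139.6 TPM in Untreated and 119.9 TPM at D28 of U87, and PI4KB at 112 and 90.3 TPM. Each D28 library of these 2 genes lay below each Untreated one, and both met the limit on p but not that on the fold change (limma, adjusted p = 0.0407 and 0.0295).

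Some markers of other cell types moved with the groups. Counts of markers that fell are given without the share of all genes called lower and describe the markers alone. CD3E, which defines T cells, stayed below 0.5 TPM in every library of both lines. The most abundant of 6 leukocyte markers was CSF1R, the receptor of macrophage growth factors, in each group of U87, and the list summed to 59.5, 48.8 and 60.5 TPM in Untreated U87, 43.2, 60.5 and 46.9 TPM at D28 and 11.95, 17.58 and 23.71 TPM at D28WO. CSF1R, the only one of them tested in U87, fell past the threshold at D28WO (-1.69 ± 0.22 by limma, adjusted p = 9.0e-05). In U251 the list summed to 3.09, 4.16 and 4.52 TPM in Untreated and 6.99, 9.37 and 9.42 TPM at D28, and 1 of 3 tested markers rose at D3, CD14, at 1.85 ± 0.28 (limma, adjusted p = 1.3e-04). CD14 was also called higher at D14, D28 and D28WO of U251, and each of these 3 calls was lost in some alternative fits. The 5 endothelial markers summed to 50.2, 39.6 and 36.0 TPM in Untreated U251 and 15.1, 14.3 and 13.4 TPM at D3. CDH5, a junction protein of blood vessels, was the most abundant in Untreated U251 and KDR in each treated group, and 1 of 4 tested fell at D3, CDH5, at -4.19 ± 0.32 (limma, adjusted p = 1.8e-07). Its means were 27.6, 0.565, 11.5, 1.26 and 2.25 TPM in Untreated, D3, D14, D28 and D28WO. KDR ran differently, with 10.3, 10.9, 21.3, 17.2 and 7.36 TPM in the same order, higher at D14 and D28 and lower at D28WO by the adjusted p alone (limma, log2 fold change 0.99, 0.70 and -0.43). The 4 epithelial markers summed to at most 9.87 TPM in any library. At D3, 0 of 2 tested in U87 and 0 of 1 in U251 passed with limma (1 and 0 at an unadjusted p under 0.05). At D28WO of U87, 1 of 2 fell, EPCAM, from 6.32 TPM in Untreated to 1.20 TPM. EPCAM was the most abundant of the 4 in U87 except at D28WO, where CDH1 was, and in U251 the leading gene changed between groups.

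Glioma and glial markers also moved with the groups. In U251 their summed level was 4077, 4100.2 and 4018 TPM in Untreated, 1605, 1925 and 1747 TPM at D3 and 3183, 2992 and 2773 TPM at D14. At D28 it was 1740.3, 1838 and 1952 TPM and at D28WO 2298, 2360.0 and 2349 TPM, so each treated library lay below each Untreated one and the D14 libraries were nearest to Untreated. Of 8 tested, 4 fell at D3 of U251, a count given with no share of all genes called lower beside it. In U87 0 of 8 passed at D3 with limma (3 at an unadjusted p under 0.05), and the sums were 2233, 2012 and 2089 TPM in Untreated, 1882 and 1839.8 TPM at D3 and 1588, 1718 and 1746 TPM at D28WO. At D28 of U87 2 of 8 passed as higher, GFAP and S100B, and the count was 0 or 1 in most alternative fits. At D28WO 2 of 8 were higher, GFAP, from 4.84 to 14.2 TPM, and OLIG2, from 7.16 to 26.7 TPM, while each D28WO sum lay below each Untreated sum. The part of the markers of any of these cell types in the APOL results was not tested.

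Related genes can share reads. Of the stretches of 50 bases in the annotated transcripts of each member, 0.381% of those of APOL1 and 0.139% of those of APOL2 also occur in another member, and none of those of APOL4, APOL5 or APOL6. With other genes the share was 5.37% for APOL4, 3.78% for APOL1, 1.59% for APOL2 and 0% for APOL3. At this length the members share little with each other, and how the authors assigned shared reads is not given in the sources used here.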

How the data were processed

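RNA of U87 and U251 cells was sequenced by the authors, whose processing notes name FastQC, Trim Galore, STAR, featureCounts and edgeR and the GRCh38 genome. Those notes give no versions, and the versions in the methods of the study are not repeated here. The deposited values are TPM per gene, in 1 table for each line, and how TPM was derived from the counts is not given in the sources used here. Columns were tied to samples by the library numbers in the labels, and 2 columns of the U87 table with the same name were not used. The depth of each sample cannot be read from TPM, and the study states only a lower bound for it.

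Genes averaging 0.5 TPM or more in a line were tested on log2(TPM + 1) with limma 3.58.1 (lmFit, eBayes with trend) in R 4.3.3, with all 5 groups of a line in 1 fit, 8 comparisons a line and Benjamini-Hochberg adjustment over all genes tested. Calls needed an adjusted p under 0.05 together with a log2 fold change beyond 1 in either direction. The code was tested on simulated data. Tables and plots were made in Python 3.11.15 with pandas 2.3.3, numpy 2.4.6 and matplotlib 3.10.9, and positions and transcripts were taken from GENCODE release 44.

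The 6 members are all accounted for. Genes of the fixed lists (signalling, guanylate-binding proteins, neighbours, other apolipoproteins, binding partners and markers) could be named, as could, for each member tested in both lines, the 3 genes with the smallest root mean square difference over 8 log2 fold changes. The members and lists were chosen with earlier results of these data known. Family sums, shares, orders of levels, shares of the rise and shared stretches of sequence are descriptions chosen after values were seen. Alternatives were a pseudocount of 0.1, no filter or one at 1 TPM, scaling by quantiles or by median ratios, fits of the 2 compared groups alone, array weights, a block for the replicate number, calls by adjusted p alone, and the omission of each library.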

Additional observations from a re-analysis of the deposited data

Results flagged for a closer look

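Among the values reported, 7 went in opposite directions in the lines in every library. APOL4 at D28WO against D28 was at -0.47 in U87, where each D28WO library lay below each D28 library, and at 0.20 in U251, where each lay above (log2 fold change). HMOX1 at D28 against Untreated was at -0.53 in U87 and 1.35 in U251, and RBFOX2 was at 0.22 in U87 and -0.28 in U251. GFAP was at 1.38 in U87 and -2.37 in U251 at D28, and at 1.45 in U87 and -1.13 in U251 at D28WO, each against Untreated. S100B at D28 was at 1.06 in U87 and -1.51 in U251, and JAK1 at D3 was at 0.28 in U87 and -0.28 in U251. The difference between the lines was not tested for any of them, since the tables were normalized separately. The check took in all tested members in all 8 comparisons and, of other genes, only changes given in the text or plotted. How often all genes tested in both lines separate in this way is not given. The count is therefore a description and is not read as an excess. An earlier, wider run over 18 listed genes in all 8 comparisons gave more such pairs, which are not described here.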

How the results depend on the processing

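APOL4 of U87, which the report leaves out of its counts of calls except between D28WO and D28, is left out of all counts here. Of 120 counts of APOL genes of U251 past the threshold under the alternatives, 118 were within 1.5 times the count of the fit used. With the adjusted p as the only criterion, 1 member passed at D14 against Untreated in U87, 5 passed at D14 against Untreated in U251 and 1 passed at D28WO against D28 in U251, since the limit on the fold change was dropped. With only the 2 compared groups, 0 passed from D3 to D14 in U87, where that fit rests on 4 libraries. The share of all genes called is given only for the fit and threshold used. Counts under the alternatives therefore describe the members alone and are not set against all genes.

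Of 984 log2 fold changes of members, 968 kept their direction and their side of the threshold, 10 kept their direction and no longer passed, and 6 changed sign. For APOL1 at D14 against Untreated in U87 (-0.01) the value was 0.0334 with the replicate number as a block, -0.32 after quantile normalization, -0.17 after scaling by median-ratio size factors and from -0.12 to 0.12 with 1 library left out, among them 0.12 without Untreated replicate 1 and 0.10 without D14 replicate 3. For APOL2 it was -0.017 after quantile normalization and -0.084 after scaling by median-ratio size factors at D14 against Untreated in U87, and 0.0492 with median-ratio size factors at D28WO against D28 in U251. None of these had passed the threshold, and the cause was not tested.

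With the replicate number as a block, APOL1, APOL2, APOL3 and APOL6 of U87 and 5 APOL genes of U251 passed at D3 against Untreated, and no count of these members changed in the 16 comparisons. Same-numbered libraries did not deviate together, with correlations of deviations from the group means from -0.06 to 0.05 over 23 pairs in U87 and from -0.04 to 0.05 over 30 pairs in U251, and 7 of 13 and 6 of 15 libraries correlated best with their own number. The numbers were therefore not taken to pair the samples.

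TPM keeps no depth, so no lower limit of detection can be given. D3 and D14 of U87 have 2 libraries each, and where 1 is left out the lone library is assumed to vary like the other groups. Each line stands for itself, and no test compared them.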
